A study of Rattus norvegicus with 4 samples.

Results

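Star, Cyp11a1, Fdx1, Tspo, Scarb1 and Akr1c14 are 6 genes of steroid synthesis and steroid handling, and their signals are described here in visceral fat of control and obese rats. They are 6 of the 10411 genes that the platform annotation names on the array, and 10 of 15866 probe sets carry 1 of these symbols alone. A probe set is a group of short oligonucleotides on the array that together report 1 transcript. The genes were chosen by the signals of these same arrays, because Star and Cyp11a1 were higher on the obese ones, so their differences between the groups are given as a description, without a test. For each gene the probe set with the highest mean signal over the 4 arrays is the main one, and the other, where there is one, is called the second. The control group holds 2 arrays and the obese group holds 2, all from visceral fat of male Wistar rats, an outbred strain, aged 130 days. The titles give the group, and the labels name no diet, allele, agent or strain difference behind the obesity. They do not say whether an array holds 1 animal or a pool, so that every error here measures the spread between samples, which may be technical.

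Steroid hormones are made from cholesterol. The protein of Star moves cholesterol from the outer to the inner mitochondrial membrane, and Cyp11a1 encodes the enzyme there that cuts its side chain to give pregnenolone, the first and committed step. This enzyme is a cytochrome P450 that receives its electrons from ferredoxin, the product of Fdx1, which is itself reduced by ferredoxin reductase. Scarb1 encodes SR-BI, the receptor through which steroid-making cells take up cholesterol esters from high-density lipoprotein. Tspo encodes a cholesterol-binding protein of the outer mitochondrial membrane, and Akr1c14 an aldo-keto reductase that reduces 3-keto groups of steroids after the hormone has been made. The adrenal cortex and the gonads carry out the whole pathway, while fat is best known for storing steroids and converting them from one form into another.

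Promoter sequences for Cyp11a1 and Fdx1 are shown because these genes of the side chain cleavage reaction both had their higher signals on the obese arrays. They come from RefSeq, build GRCr8, and hold the 250 bases before the annotated start of the gene. The Cyp11a1 window lies at chr8:67318415-67318664 on the plus strand and the Fdx1 window at chr8:61183646-61183895 on the minus strand. Capitals mark AGGTCA, a half-site bound by many nuclear receptors.
Cyp11a1: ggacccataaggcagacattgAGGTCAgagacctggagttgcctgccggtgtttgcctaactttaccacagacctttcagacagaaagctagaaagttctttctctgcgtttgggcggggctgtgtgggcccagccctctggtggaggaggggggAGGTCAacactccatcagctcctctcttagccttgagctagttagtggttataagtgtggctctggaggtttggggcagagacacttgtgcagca
Fdx1: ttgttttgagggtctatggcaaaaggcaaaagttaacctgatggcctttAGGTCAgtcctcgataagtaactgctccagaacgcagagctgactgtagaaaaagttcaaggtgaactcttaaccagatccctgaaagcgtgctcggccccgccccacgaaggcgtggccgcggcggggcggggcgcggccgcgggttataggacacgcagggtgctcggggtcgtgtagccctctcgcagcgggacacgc

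AGGTCA was searched on both strands, and this motif was added after the windows had been read. It was found 2 times in the Cyp11a1 window, starting 229 and 95 bases before the gene's start, and 1 time in the Fdx1 window, starting 201 bases before it. Of all 33469 promoter windows of this length, 14.1% hold it. The Akr1c14 window, at chr17:71083185-71083434 on the minus strand, holds 0 matches. The longer motif AAGGTCA, which contains AGGTCA and is a type bound by steroidogenic factor 1, was matched in none of these 3 windows, against 3.99% of all windows. Only this exact form was searched, so that the windows may still hold sites for this factor. The cAMP response half-site TGACG (18.2% of all windows) and the GATA-type motif AGATAA (10.3%) were matched in none of the 3 either. The windows differ in composition, with 54.4% G and C for Cyp11a1, 59.2% for Fdx1 and 40.4% for Akr1c14, against a median of 51.2%. Windows of Star, Tspo and Scarb1 are not used here.

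The deposited values are intensities on a linear scale. A signal is in the arrays' arbitrary units, so that levels of different genes are not compared. The median signal lay between 75.0 and 83.1 on the 4 arrays, and obese replicate 2 had the lowest. Signals under 20.8, the 20th percentile of all values, were raised to that floor before conversion to log2. Probe sets with at least 2 arrays above the floor entered the test, 12929 in all. Of the 10 probe sets of the members, 9 passed this filter, the main one of each gene among them.

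Star, the cholesterol carrier, had signals of 61.8 and 41.6 on control replicates 1 and 2, and of 97.7 and 202.6 on obese replicates 1 and 2. The obese signals were thus both higher than either control signal, and obese replicate 2 was 2.07 times as bright as obese replicate 1. The mean signal was 51.7 ± 14.3 (SD, n = 2) in control and 150.2 ± 74.2 (SD, n = 2) in obese fat, a log2 difference of 1.47 ± 0.39 (moderated SE of the limma fit over all tested probe sets), or 2.77-fold. Only 28 of the 12929 tested probe sets had a larger difference. Of all tested probe sets, 0.41% were at least 2-fold higher in obese fat with no overlap of the groups, and 0.727% were lower by the same measure. Since Star and Cyp11a1 were chosen for this, nothing is read from their place among them.

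The second probe set of Star, listed under the same transcript accession, gave another picture. Its signals were 69.9 and 40.6 on the control arrays and 48.2 and 122.1 on the obese arrays. The groups overlapped, since obese replicate 1 lay between the control arrays and only obese replicate 2 lay above them. The log2 difference was 0.53 ± 0.49, and 1.0 when both probe sets were averaged. In both probe sets obese replicate 2 held the highest Star signal and control replicate 2 the lowest. They differed on obese replicate 1, which was above control replicate 1 by 0.66 on the log2 scale in the main probe set and below it, with a difference of -0.54, in the second. With the main probe set the difference was 0.95 without obese replicate 2 and 2.0 without obese replicate 1.

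Cyp11a1, the side chain cleavage enzyme, had 1 probe set, with signals of 81.5 and 55.4 on the control arrays and of 150.2 and 148.7 on the obese arrays. The groups did not overlap, and the obese arrays differed from each other by 0.01 on the log2 scale where the control arrays differed by 0.56. The mean was 68.5 ± 18.5 (SD, n = 2) in control and 149.4 ± 1.06 (SD, n = 2) in obese fat, a log2 difference of 1.15 ± 0.23, or 2.22-fold. Each of the 4 pairings of an obese with a control array gave a positive difference, from 0.87 to 1.44, so that the size depended on which control array was used and hardly on the obese array. Leaving out control replicate 2 gave a difference of 0.87, and leaving out control replicate 1 gave 1.43.

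Star and Cyp11a1 thus differed in which arrays carried the contrast. Star ran from 97.7 to 202.6 within the obese group, while Cyp11a1 stood at the same level on both obese arrays. In both genes control replicate 2 was the lowest of the 4 arrays, 1.49-fold below control replicate 1 for Star and 1.47-fold below it for Cyp11a1.

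**Figure D1:**
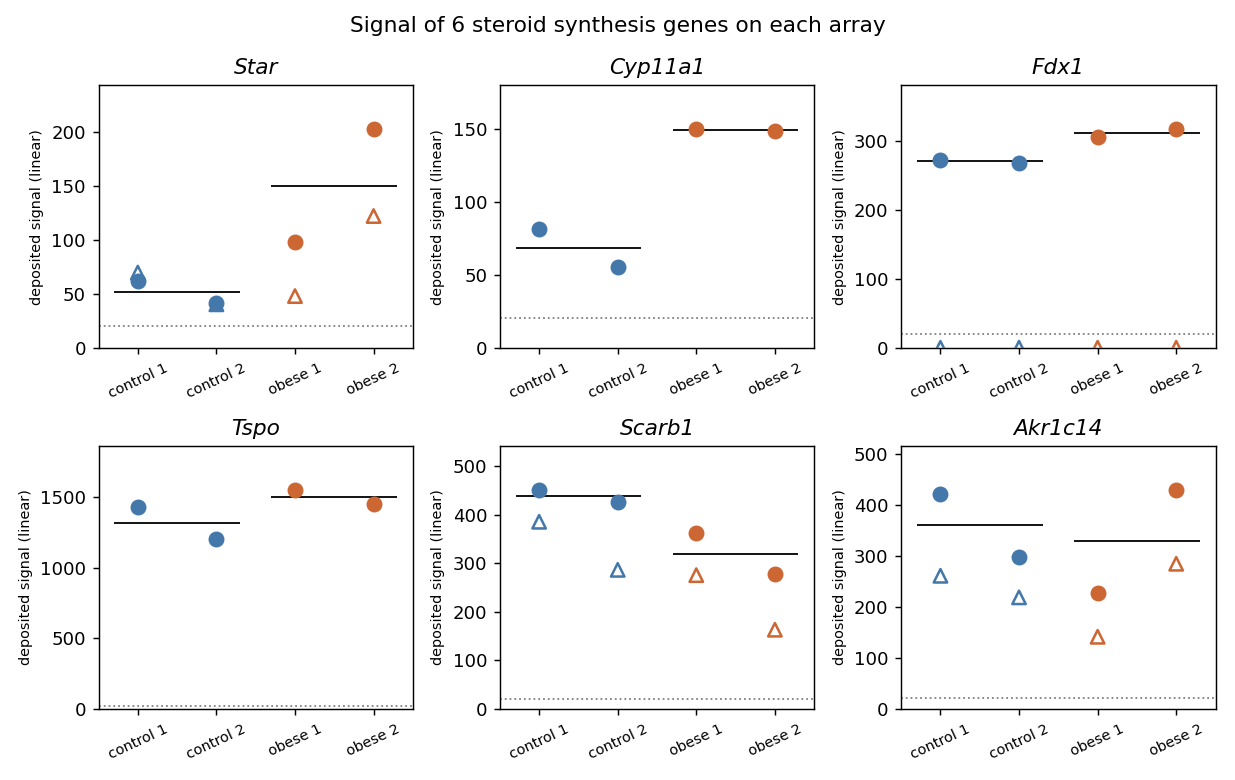
Deposited signal (linear axis from 0) of each member on the 4 arrays, control in blue and obese in orange. Filled circles are the main probe set, open triangles the second, black bars the group means of the main probe set and the dotted line the floor of 20.8. Star and Cyp11a1 are higher on both obese arrays in the main probe set, the triangles of Star overlap between groups, and Akr1c14 is lowest on obese replicate 1 and highest on obese replicate 2.

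Fdx1, the ferredoxin that passes electrons to the enzyme of Cyp11a1, had signals of 272.8 and 268.3 on the control arrays and of 305.4 and 317.6 on the obese arrays. The groups did not overlap and the arrays of a group lay close together, but the difference was small. Its means were 270.6 ± 3.18 (SD, n = 2) and 311.5 ± 8.63 (SD, n = 2), a log2 difference of 0.20 ± 0.12, or 1.15-fold. Groups that did not overlap with obese fat higher made up 15.6% of all tested probe sets, so that such a pattern alone is common on these arrays. The second probe set of Fdx1, listed under an expressed sequence tag, had signals between 0.7 and 0.9 on the 4 arrays, far under the floor, and gives no difference.

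Tspo, the outer membrane cholesterol-binding protein, had signals of 1429 and 1205.9 on the control arrays and of 1554 and 1453.6 on the obese arrays. Obese replicate 2 exceeded control replicate 1 by 0.02 on the log2 scale, so that the groups only just failed to overlap, and they did overlap with quantile normalization and with cyclic loess. The means were 1317 ± 158 (SD, n = 2) and 1504 ± 71.0 (SD, n = 2), a log2 difference of 0.20 ± 0.15.

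Scarb1, the receptor for high-density lipoprotein, was the only member that was lower on both obese arrays. Its main probe set had signals of 452.1 and 426.2 on the control arrays and of 362.1 and 277.4 on the obese arrays. Obese replicate 2 was the lowest array, and the group means were 439.1 ± 18.3 (SD, n = 2) and 319.8 ± 59.9 (SD, n = 2), a log2 difference of -0.47 ± 0.16. The second probe set, listed under the same transcript, gave 385.8 and 286.7 on the control arrays and 275.8 and 163.4 on the obese arrays, a difference of -0.65 ± 0.28. Both probe sets thus kept obese below control arrays without overlap, although in the second obese replicate 1 differed from control replicate 2 by only -0.06 on the log2 scale. Groups that did not overlap with obese fat lower made up 24.4% of all tested probe sets. The difference of the main probe set was -0.28 without obese replicate 2 and -0.66 without obese replicate 1.

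Akr1c14, the 3-alpha-hydroxysteroid dehydrogenase, had signals of 422.2 and 298.7 on the control arrays and of 228.1 and 430.4 on the obese arrays. The groups overlapped completely, because the lowest and the highest of the 4 signals were both obese. The log2 difference was -0.18 ± 0.33. Its sign turned when some arrays were left out, to 0.28 without obese replicate 1 and 0.07 without control replicate 1. It stayed negative at -0.64 without obese replicate 2 and -0.43 without control replicate 2. The second probe set had 261.3 and 219 on the control arrays and 141.7 and 284.9 on the obese arrays, and it ordered the 4 arrays in the same way, with a difference of -0.25 ± 0.33. Both probe sets gave obese replicate 2 about the same excess over obese replicate 1, 1.89-fold and 2.01-fold. The gene belongs to a family of reductases with similar sequences, and whether its probe sets also bind relatives was not tested.

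Counted by the main probe set, 4 of the 6 members were higher on both obese arrays without overlap, 1 was lower and 1 overlapped, beside the 15.6% and 24.4% of all tested probe sets given above. The median log2 difference of the 6 genes was 0.20, where that of all tested probe sets was -0.04. Star and Cyp11a1 were chosen for being higher, so nothing is read from the count of 4 or from this median. The shares depend on the scaling: with each array centred on its median they were 22.1% higher and 16.6% lower, and the same 4 members were higher. With quantile normalization and with cyclic loess 3 members were higher without overlap, since Tspo was not.

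**Figure D2:**
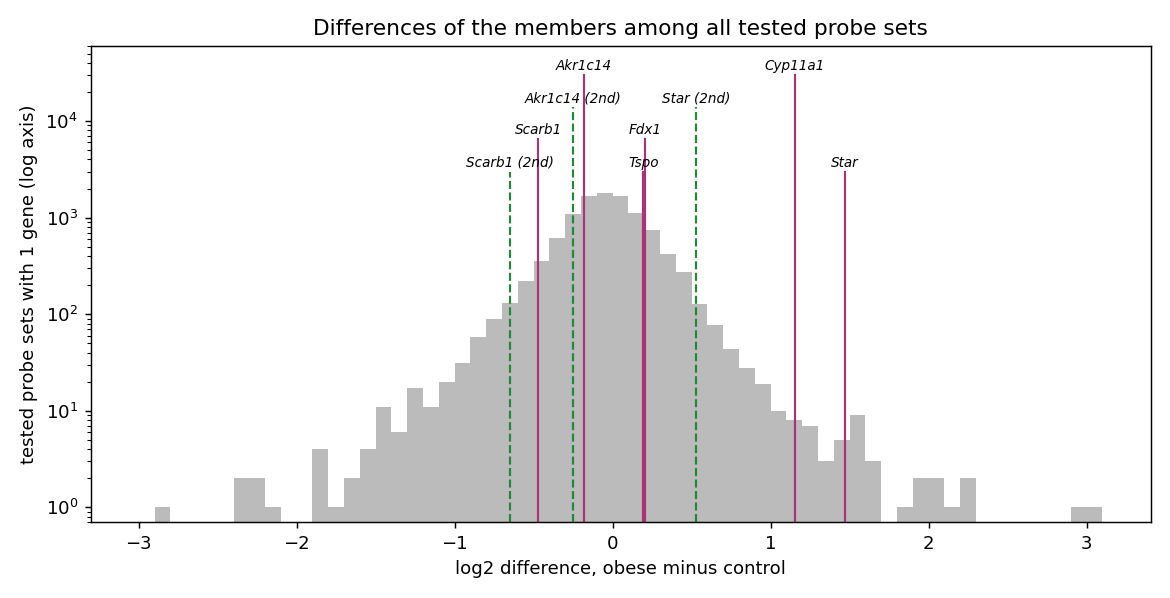
Log2 difference between obese and control fat (horizontal axis) against the number of tested probe sets with 1 gene (vertical log axis, grey bars). Solid lines mark the main probe set of each member and dashed lines the second; Star at 1.47 and Cyp11a1 at 1.15 lie in the right tail, and Fdx1, Tspo and Akr1c14 lie within the bulk.

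For the rest of the pathway, 7 lists of other genes were used, from cholesterol supply to hormone receptors, with 139 genes in all. The array names 110 of them, and 95 passed the filter on dim signals. With limma's moderated test and p-values adjusted by Benjamini and Hochberg's method over the 12929 probe sets, 0 of the 95 were called at 0.05 in either direction, and their smallest adjusted p was 0.402. Over all probe sets 0 were called, which is 0%, while 1073, or 8.3%, had an unadjusted p under 0.05. Of the 95 genes, 7 higher and 6 lower ones had an unadjusted p under 0.05. Their median log2 difference was 0.09, with 61 above 0, 33 below and Nr0b1, a repressor of steroid synthesis, at 0 because of the floor; over all 9011 genes tested by their main probe set, the median was -0.04 and 3905 lay above 0. The groups did not overlap for 24 of the 95 genes (25.3%) with obese fat higher and for 13 (13.7%) with obese fat lower, beside 16.4% and 24.0% of all genes. These values move with the scaling. Centring each array on its median added 0.08 to every difference, which gave the 95 genes a median of 0.17 with 72 above 0 and 23 below. The shares without overlap were then 32.6% and 11.6% for the 95 genes and 23.3% and 16.3% for all genes.

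Among 18 tested genes of cholesterol supply and import, 0 were called, 10 lay above 0 and 8 below, and the median was 0.08. With median centring 13 of the 18 lay above 0, at a median of 0.16, and with quantile normalization 9 did, at a median of 0.04. The largest t belonged to Dbi, the acyl-CoA-binding protein that is also a ligand of the Tspo protein. Its signals were 927.8 and 939.8 on the control and 1161.4 and 1796.2 on the obese arrays, a log2 difference of 0.63 ± 0.22 (limma adjusted p = 0.557), and 0.31 without obese replicate 2. The smallest t belonged to Lipa, the lysosomal acid lipase that frees cholesterol from its esters. Lipa had 457.9 and 651.5 on the control and 291.7 and 229 on the obese arrays, a difference of -1.08 ± 0.22 (limma adjusted p = 0.402). Both genes kept their groups apart, in opposite directions.

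Among the same genes, Soat1, which esterifies cholesterol, had 126 and 132 on the control and 87.1 and 62.2 on the obese arrays, a difference of -0.81 (limma adjusted p = 0.477). Nceh1, a neutral cholesterol ester hydrolase, differed by -0.76 (limma adjusted p = 0.467). These were named after their values were seen, as the other 2 of 3 list genes that were lower without overlap. Lipe, the hormone-sensitive lipase that also cleaves cholesterol esters, overlapped between groups with a difference of 0.14, and leaving out control replicate 2 gave -0.03, leaving out control replicate 1 gave 0.32. Cd36 and Cav1, with the highest mean log2 signals, differed by -0.04 and 0.17 and overlapped as well. The sign of Cd36 turned, to 0.04 with median centring, 0.20 without obese replicate 1 and 0.03 without control replicate 2.

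The next list holds electron donors, suppliers of NADPH and other mitochondrial partners of these enzymes, such as the protease Lonp1 and the ATPase Atad3a. Of its 10 tested genes 0 were called, with a median of 0.07. Ferredoxin reductase, Fdxr, is not analysed here. Por, the reductase that serves microsomal P450 enzymes, had 220.1 and 247.6 on the control and 292.9 and 334 on the obese arrays, a difference of 0.42 ± 0.14 (limma adjusted p = 0.552). Its second probe set gave 0.37 with overlapping groups. Nnt, the transhydrogenase that makes NADPH inside mitochondria, lay on the other side, with 333.9 and 413 on the control and 277.7 and 230.3 on the obese arrays. Its difference was -0.55 ± 0.17 (limma adjusted p = 0.522). Cyb5r3 and Cyb5a, a reductase and its cytochrome b5 partner, differed by 0.34 and 0.43, each without overlap (limma adjusted p = 0.593 and 0.615).

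The enzymes that follow side chain cleavage in the adrenal and the gonads were dim. Cyp17a1, the 17-alpha-hydroxylase, had signals between 2.2 and 2.7 on the 4 arrays, Hsd3b1 between 1.6 and 1.9, and aromatase, Cyp19a1, between 5.3 and 5.9, all far under the floor. Cyp21a1, the 21-hydroxylase, reached 20.9 on control replicate 1 and 13.7, 12.4 and 20.4 on the others. Cyp11b1, the 11-beta-hydroxylase, had 25.2 and 23.1 on the control and 43.2 and 12 on the obese arrays, so that its groups overlapped. No detection call was used, so that a dim signal gives only an upper bound and not absence. In all, 12 of 17 genes of this list passed the filter, 0 were called, and their median was 0.04. Those with clear signals were the broadly expressed hydroxysteroid dehydrogenases, among them Hsd17b12 (0.23), Hsd17b4 (0.04) and Hsd17b11 (-0.15), which also act on fatty acids or retinoids. Hsd17b4 gave -0.03 with quantile normalization and -0.06 without obese replicate 2.

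Of 9 tested genes that reduce, inactivate or conjugate steroids, 0 were called and the median was 0.18. Hsd11b2, which inactivates glucocorticoids, had 64.5 and 66.4 on the control and 92.9 and 82.5 on the obese arrays, a difference of 0.42 ± 0.18 (limma adjusted p = 0.619). Hsd11b1, which works in the opposite direction in fat, had 199.3 and 193.3 on the control and 315.2 and 174.3 on the obese arrays. Its groups overlapped, with obese replicate 1 highest and obese replicate 2 lowest, the reverse of the order of these arrays for Akr1c14. Srd5a3, a reductase of the steroid 5-alpha-reductase family, differed by -0.05, and by 0.03 with median centring.

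Genes of trophic signalling and of transcription were mixed: of 27 tested, 0 were called, 15 lay above 0 and 11 below, and the median was 0.01. Nr5a1, the steroidogenic factor 1 that drives Star and Cyp11a1 in the adrenal and the gonads, had signals between 0.7 and 1 on the 4 arrays. Its relative Nr5a2 had signals between 3.6 and 5.5, also under the floor; it was named after its values were seen. Lhcgr, the luteinizing hormone receptor, had 49.2 and 42 on the control and 36.7 and 37.4 on the obese arrays, a difference of -0.30 (limma adjusted p = 0.736), and its second probe set lay under the floor. The receptor for adrenocorticotropin, Mc2r, is not analysed here.

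Among the factors with clear signals, Cebpb, a transcription factor of fat cell development that also binds the Star promoter, had 335 and 346.7 on the control and 473.7 and 547.4 on the obese arrays. Its difference was 0.58 ± 0.13 (limma adjusted p = 0.457). Creb1, the cAMP response factor, had 127.2 and 126.1 on the control and 95.7 and 78.9 on the obese arrays, a difference of -0.54 ± 0.18 (limma adjusted p = 0.526). A second probe set of Creb1 gave -0.21, also without overlap. Nr4a1, an orphan receptor induced by trophic hormones, overlapped between groups with a difference of 0.08, which was -0.05 without control replicate 1 and -0.03 without obese replicate 1. Its relatives, named after their values were seen, lay on both sides without overlap. Nr4a3 had 43.3 and 44.3 on the control and 87.6 and 60.9 on the obese arrays, a difference of 0.74 (limma adjusted p = 0.522), and Nr4a2 differed by -0.22 (limma adjusted p = 0.806). Gnas and Zfp36l1, with the highest mean log2 signals of the list, overlapped with differences of 0.14 and -0.28. Gnas gave -0.04 without obese replicate 2, and its other tested probe set gave -0.55 with overlap.

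Of 6 tested genes of steroid receptors and related proteins 0 were called, and the differences of their main probe sets ran from -0.16 for Esr1, the estrogen receptor alpha, to 0.19 for Pgrmc2, a membrane-associated heme-binding protein. Esr1 gave 0.31 without control replicate 1 and 0.05 without obese replicate 2. The second probe set of Pgrmc2 gave 0.47 without overlap (limma adjusted p = 0.574). Nr3c1, the glucocorticoid receptor, had 367.9 and 332.8 on the control and 405.1 and 349.2 on the obese arrays and overlapped. Of 13 tested genes of cholesterol synthesis, 10 lay above 0, 0 were called, and the median was 0.23. Idi1, an isomerase of the isoprenoid steps, had the largest t, with 53.9 and 72.1 on the control and 87.3 and 94.5 on the obese arrays, a difference of 0.54 ± 0.21 (limma adjusted p = 0.590), and 0.40 in its second probe set, also without overlap. Mvk, mevalonate kinase, had the smallest t, at -0.16 with overlapping groups. Fdft1, squalene synthase, differed by 0.33 without overlap, and Fdps, the enzyme before it, by 0.15 with overlap. Fdps gave -0.29 without control replicate 1 and 0.58 without control replicate 2.

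**Figure D3:**
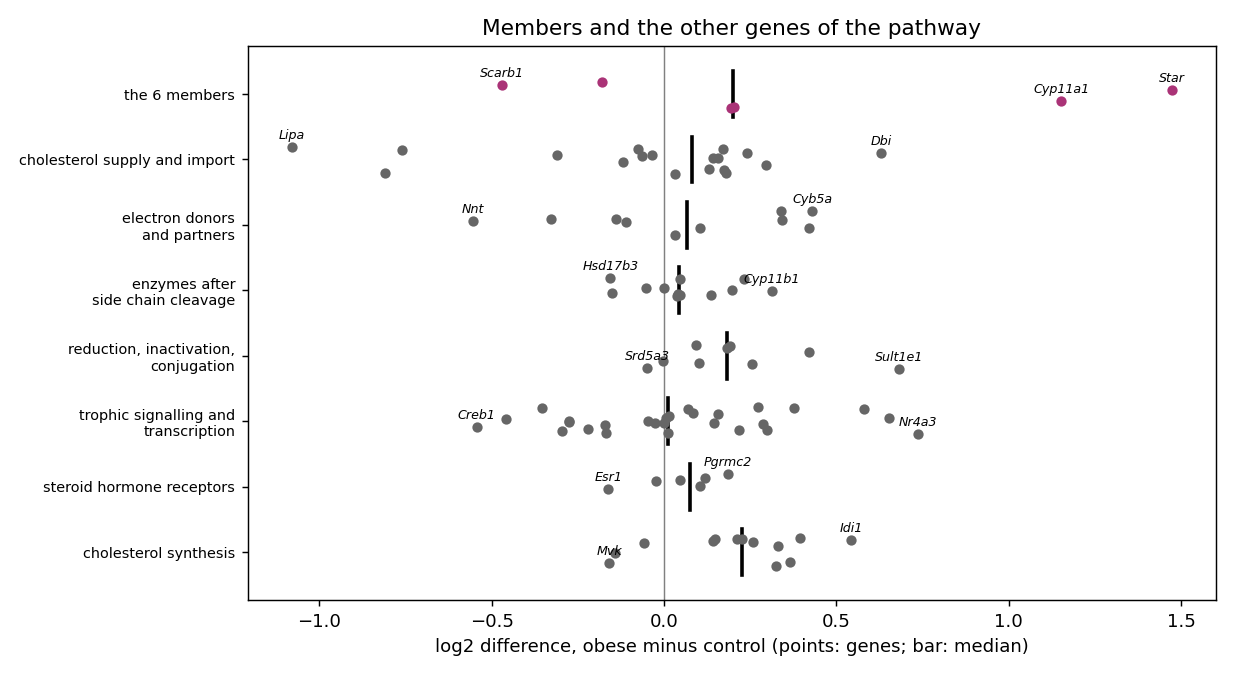
Log2 difference between obese and control fat for the 6 members (top row) and for the tested genes of 7 lists of the pathway, 1 point per gene, with a black bar at each list's median; vertical scatter within a row has no meaning. The differences of the 7 lists run from -1.08 (Lipa) to 0.74 (Nr4a3). Star and Cyp11a1 lie to the right of these by their main probe sets, but were chosen for being higher, so nothing is read from their place. The second probe set of Star, which is not drawn, gave 0.53.

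The tissue label was set against markers. All 9 adipocyte markers on the array were above the floor on every array. Their summed signal was 16276 and 15949 on the control and 16167 and 20197 on the obese arrays. Plin1 and Dgat2 were the 2 of these 9 genes that were higher in obese fat without overlap, beside 16.4% of all genes. The other 7 overlapped. Obese replicate 2, the array with the highest Star signal, also had the highest signal of the fat cell hormone gene Lep, 1256.4 against 539.5 on obese replicate 1 and 597.4 and 330.2 on the control arrays. Whether the share of fat cells had a part in the difference of Star was not tested. In bulk tissue, fewer cells of a type and less RNA per cell cannot be told apart.

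Some markers of steroid-making glands lay under the floor. Of 9 adrenal cortex markers on the array, 4 (Cyp17a1, Hsd3b1, Akr1b7 and Nr5a1) were under the floor on all 4 arrays. The list's sum of 823.9 and 799.7 on the control and 840.3 and 946.3 on the obese arrays came mostly from Ephx1, a microsomal epoxide hydrolase of many tissues, with 659.8 to 820.4. Of 7 Leydig cell markers 3 were under the floor on all arrays and the other 4 (Lhcgr, Insl3, Hsd17b3 and Inha) above it on every array. Of these, 3 were dim beside the floor of 20.8, with 24.1 to 32.4 for Insl3, 26.8 to 41.7 for Hsd17b3 and 36.7 to 49.2 for Lhcgr. The sum of all 7 was 194.4 and 187 on the control and 178.7 and 149.1 on the obese arrays. The part of these cells in the signals of Star and Cyp11a1 was not tested. Of 9 germ cell and epididymis markers 5 were under the floor throughout, and the sums were 135 and 145.7 against 148.8 and 141.1.

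Of 10 adrenal medulla markers 4 were under the floor on all arrays, chromogranins Chga and Chgb among them. The sum was 529.8 and 435.5 on the control and 889.9 and 575.1 on the obese arrays, and the neuropeptide gene Npy had 125.8 and 72.2 on the control and 521.5 and 274.5 on the obese arrays. The other 9 genes summed to 404 and 363.3 on the control and 368.4 and 300.6 on the obese arrays. Kidney markers summed to 70.3 and 70.1 on the control and 82.8 and 64.7 on the obese arrays, with 6 of 7 under the floor throughout. Liver markers summed to 271.9 and 388.4 against 385.9 and 351.6, with 3 of 8 under the floor.

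Macrophages also express Scarb1 and Tspo, and the summed signal of their markers was lower on both obese arrays. Of 13 markers, all above the floor, 9 were lower without overlap, 0 higher and 4 overlapped, beside the 24.4% of all tested probe sets that were lower. With limma 0 of the 13 were called (smallest adjusted p = 0.269). The summed signal was 10623 and 12295 on the control and 7744 and 7575 on the obese arrays. Scarb1 was lower on the same arrays, and Tspo was not. Lipa, Soat1 and Nceh1 were the 3 of 18 cholesterol supply genes (16.7%) that were lower without overlap, beside 24.0% of all genes. In that list 5 genes were higher without overlap, and Apoe, Abcg1, Npc2 and Cd36 were among those that overlapped. The part of macrophages in these values was not tested. Endothelial markers summed to 2006 and 2004 on the control and 1935 and 1858 on the obese arrays.

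Among the 10 marker lists, the obese arrays differed most, by ratio of sums, in mesothelium, the cell layer that covers visceral fat. All 5 on the array passed the filter, and their sum was 787.1 and 949.4 on the control arrays, 1629 on obese replicate 1 and 366.2 on obese replicate 2. The keratin gene Krt19 had 405.4 on obese replicate 1 and 47.8 on obese replicate 2. Star and Akr1c14 were brighter on obese replicate 2 than on obese replicate 1, by 2.07-fold and 1.89-fold, and Hsd11b1 was dimmer, while Cyp11a1 was alike on both. Whether the amount of mesothelium had a part in this was not tested.

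**Figure D4:**
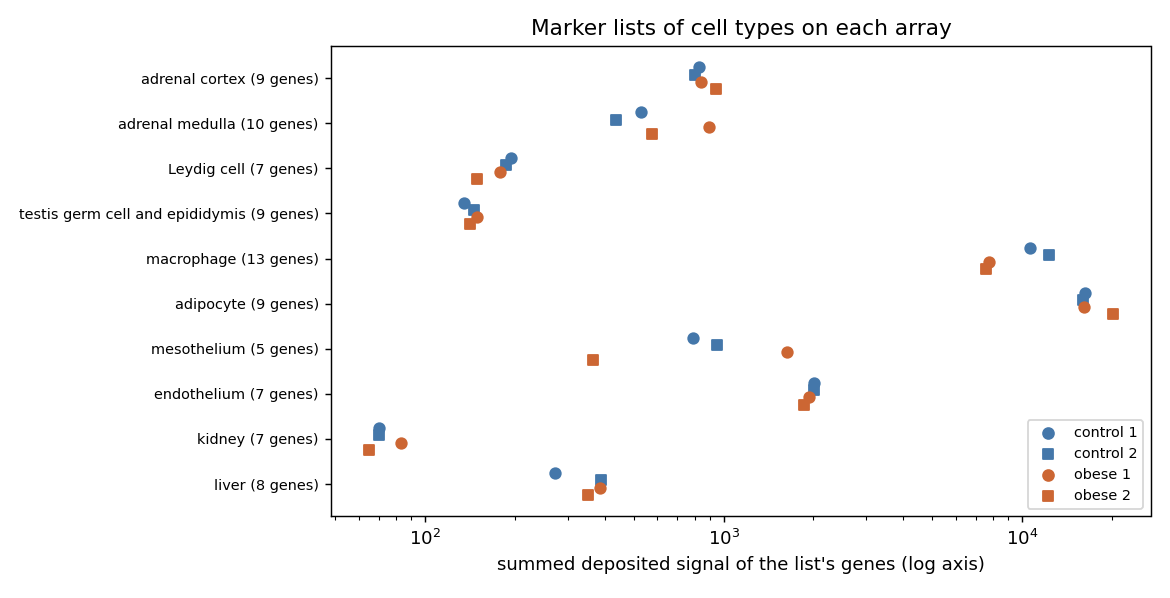
Summed deposited signal of 10 marker lists (log axis) on each array, with the number of genes on the array in brackets; circles are replicate 1 and squares replicate 2, control in blue and obese in orange. Macrophage sums are lower on both obese arrays, mesothelium sums are 1629 and 366.2 on obese replicates 1 and 2, and the adrenal cortex list lies between 799.7 and 946.3 on all 4 arrays.

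Genes with the pattern most like that of Star and of Cyp11a1 were looked for among 9010 other genes, by the Euclidean distance between log2 signals on the 4 arrays after each gene's mean had been taken off. With 4 arrays, a small distance is a description only. Nearest to Star was Pde1b, a phosphodiesterase that breaks down cyclic nucleotides, at a distance of 0.13, with signals of 29.8 and 18.1 on the control and 50.3 and 92.6 on the obese arrays. It was followed by Oxtr, the oxytocin receptor (0.41), Pnpla3, a lipid droplet protein (0.50), Cldn19, a claudin of tight junctions (0.53), and Entrep1 (0.55). All 5 are dim genes. For Pde1b, Oxtr and Entrep1 1 control array lay under the floor, and for Cldn19 both did, so that Cldn19 was at least 2.97-fold higher in obese fat. Their likeness to Star depends on the floor. With the floor raised to the 40th percentile, the log2 difference of Star was 1.27, and those of the 5 genes ran from 0.24 (Cldn19) to 0.73 (Oxtr). The second probe set of Star lay at a distance of 0.98 from the first, farther than 56 genes, and Cyp11a1 at 0.82.

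Nearest to Cyp11a1 were Tcim (0.25), Depp1 (0.35), Nfkbia, the inhibitor of NF-kappa-B (0.35), Fasn, fatty acid synthase (0.36), and Iffo1 (0.36). Fasn had 578.2 and 485.5 on the control and 1137.6 and 1445.3 on the obese arrays. Nfkbia had 345.3 and 219.4 on the control and 651.1 and 472.2 on the obese arrays, so that control replicate 2 was lowest here too. Depp1, a gene induced by progesterone in the uterus, had 273.4 and 222.7 on the control and 455.2 and 441.5 on the obese arrays, again with the obese arrays close together. In all 5 the groups did not overlap, with obese fat higher, beside 16.4% of all genes. They were chosen for a pattern like that of Cyp11a1, whose groups did not overlap either, so nothing is read from this. Of the other members, Star was at a distance of 0.82 from Cyp11a1, Tspo at 0.98, Fdx1 at 1.02, Akr1c14 at 1.49 and Scarb1 at 1.68.

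**Figure D5:**
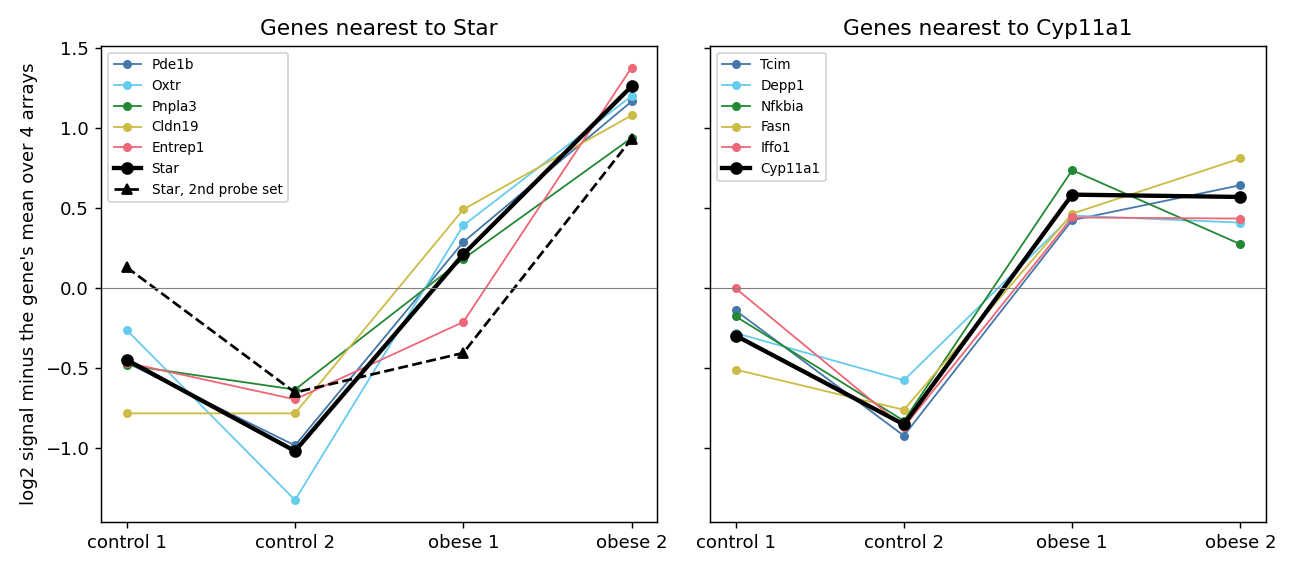
Log2 signal minus each gene's mean over the 4 arrays (vertical axis) on each array for Star (left) and Cyp11a1 (right), in black, with the 5 nearest genes of each in colour; lines only join the points of 1 gene, and the arrays have no order. The dashed line is the second probe set of Star, which lies below the first on obese replicate 1.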

How the data were processed

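RNA of visceral fat from 4 samples was measured on single-colour arrays. The deposited table holds 1 intensity per probe set and array; from the values, the authors scaled these intensities, and the sources used here do not give scanner, software or normalization. With 2% trimmed at each end, array means lay between 149.6 and 149.8, so that no further scaling was done. Of 15923 probe sets, 57 controls were left out, and 12783 have 1 symbol in the platform annotation, 312 several and 2771 none; 12748 symbols were found by Entrez identifier in the GRCr8 table, and 0 changed. After the floor of 20.8 and log2, limma 3.58.1 (R 4.3.3; eBayes with a variance trend, two-sided, Benjamini-Hochberg) was fitted on 12929 probe sets, with 5.83 degrees of freedom. The smallest two-sided p of an exact permutation test with 2 against 2 arrays is 0.333, and none was used. The code was tested on simulated data. Members, lists and markers were chosen with earlier results of these data known. Named genes are all members, from each list those with the largest and smallest t and the 2 highest mean log2 signals, a fixed set of steroid genes, and the 5 genes nearest in pattern to Star and to Cyp11a1. Alternatives were other scalings, floors, a pseudocount of 32, filters, variance models, a replicate block, left-out arrays and means over probe sets. Promoter windows of 3 members were found in the RefSeq table, using Python 3.11.15.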

Additional observations from a re-analysis of the deposited data

How the results depend on the processing

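Of the 15 alternatives, the other filters, the fit without a variance trend and the replicate block cannot change a member's difference. Under the rest, Star and Cyp11a1, which were chosen for being higher, kept a positive difference. Fdx1 and Tspo also kept a positive and Scarb1 a negative difference. Left-out arrays gave 0.95 to 2.0 for Star, 0.87 to 1.43 for Cyp11a1 and 0.07 to 0.32 for Tspo, and -0.64 to 0.28 for Akr1c14, whose sign turned without obese replicate 1 and, at 0.07, without control replicate 1. With a pseudocount of 32 in place of the floor Star gave 1.07 and Cyp11a1 0.87, against 1.47 and 1.15 in the main setting. With the floor at the 40th percentile Star gave 1.27 and Cyp11a1 stayed at 1.15. Members higher without overlap numbered 3 to 5 over the alternatives, and the share of all tested probe sets moved too. The 5 came without obese replicate 1, where 28.7% of all were higher without overlap, against 15.6% in the main setting. The 3 came with quantile normalization and cyclic loess, where 18.7% and 19.0% were. The number of probe sets past the limma threshold was 1 with median centring, 3 with the pseudocount, 6 without a filter, 1 without the variance trend, and 0 to 43 with an array left out, a fit that lends a single array the other group's spread. Pathway genes past it stayed at 0. Non-overlapping probe sets at least 2-fold apart numbered 147, 314 after lowering the floor to the 10th percentile, 71 after raising it to the 40th, 67 with the pseudocount and 176 to 301 with an array left out. The titles share replicate numbers, and deviations of same-numbered arrays correlated at 0.05 over probe sets, in 2 pairs. With 2 arrays a group these deviations mirror each other, so they cannot show whether the numbers mark a pairing. With the replicate block 0 probe sets passed and 1103 had an unadjusted p under 0.05, against 1073 without it. The block cannot change the differences themselves, since each block holds a control and an obese array. The number of arrays, 2 a group, limits every value.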
